A study of Ovis aries with 9 samples.

Results

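The transcripts of 9 enzymes of the mitochondrial tricarboxylic acid (TCA) cycle that lie outside succinate dehydrogenase (complex II) were followed in the liver of Tan sheep, a fat-tailed Chinese breed, across 3 levels of dietary succinate. They were chosen by name as listed mitochondrial cycle enzymes, and all 9 listed names were found among the 21257 genes of the deposited table. The names are CS, IDH2, IDH3A, IDH3B, IDH3G, OGDH, DLST, FH and MDH2. All 3 groups were male sheep aged 5 months on the same basal diet: a control group with no additive, a group given 1% succinate and a group given 2% succinate. Per the labels, 30 animals entered the trial, in 5 stalls per group with 2 sheep each, and a pretrial period of 10 days preceded 60 days of feeding. The series holds 3 liver libraries per group. The labels do not say whether each library is a separate animal, so the p-values speak for the spread among these libraries, part or all of which could be technical.

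The TCA cycle oxidises the acetyl group of acetyl-CoA in the mitochondrial matrix and hands the electrons to the respiratory chain. Carbon enters through citrate synthase, passes through isocitrate and 2-oxoglutarate to succinyl-CoA and succinate, and returns through fumarate and malate to oxaloacetate. In ruminant liver the succinyl-CoA to oxaloacetate arc also carries propionate from rumen fermentation towards glucose. Dietary succinate, if it reached the matrix, would join the cycle just before complex II, so CS, the isocitrate dehydrogenases and the 2-oxoglutarate dehydrogenase subunits stand upstream of that point and FH and MDH2 downstream.

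Values are FPKM (fragments scaled to gene length and library size) as deposited, so levels of different genes are per length. The annotation behind the gene lengths is not settled, so ranks and ratios between genes hold on the deposited FPKM scale only, whereas comparisons of 1 gene between libraries do not depend on its length. Reads recovered from the steps of the values numbered 13818648 to 18172528 per library. The labelled tissue held: the 10 hepatocyte markers examined summed to between 45570 and 76154 FPKM in each library, while the 8 skeletal muscle markers summed to at most 3.43 FPKM, and 2 of these, as well as 1 of 3 measured erythroid markers, were at 0 in all libraries. Library 3 at 1% carries conflicting labels, 1% in its treatment field and 2% in its title. It was kept at 1%. The comparisons between pairs of groups were also run for each member without it and with it at 2%. The T and NK cell markers lay below control in both dosed groups: the 9 genes summed to 16.4 to 23.1 FPKM at 1% and 20.7 to 26.8 FPKM at 2%, against 30.2 to 43.8 FPKM in controls. Of 8 tested, 0 lay above 0 and 0 passed at either dose. With limma 5 of 8 had an unadjusted p under 0.05 at 1% and 2 of 8 at 2%, against 14.9% and 5.18% of all tested genes. Stellate cell and fibroblast markers summed to 60.2 to 205 FPKM at 2%, against 66.2 to 80.8 FPKM in controls. All 8 had a change above 0 at 2%, where 60.7% of all tested genes lay below 0, and 0 passed. Cholangiocyte markers summed to 21.2 to 137 FPKM at 1%, against 11.4 to 45.2 FPKM in controls, with 2 of 6 above 0. Hepatocyte markers summed to 67057 to 70294 FPKM at 1% and 65755 to 76154 FPKM at 2%, against 45570 to 68622 FPKM in controls. Of these 10, 5 lay above 0 at 1% and 8 at 2%, and 0 passed. Of 8 Kupffer and myeloid cell markers, 0 lay above 0 at 1% and 1 at 2%, and 0 passed. Over all tested genes 68.6% lay below 0 at 1% and 60.7% at 2%. Of 15 circadian clock genes, 1 passed the test at 1% (USP2, lower), against 0.0167% of all tested genes. At 2% 3 passed (ARNTL higher, CIART and USP2 lower), against 0.0502% of all tested genes. The part of these shifts in the results that follow was not tested. In whole tissue, fewer cells of a type and less RNA per cell cannot be told apart.

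MDH2 dominated the 9 transcripts and IDH3A was the scarcest, and this held in all 9 libraries. MDH2, mitochondrial malate dehydrogenase, averaged 135 FPKM over the libraries and made up 31.0% to 36.0% of the summed FPKM of the 9 genes. Below it came IDH3B at 55.3, IDH3G at 53.3, FH at 42.1, DLST at 40.4, IDH2 at 32.5, OGDH at 21.1, CS at 19.7 and IDH3A at 3.34 FPKM. The lowest MDH2 value, 119 FPKM, lay above the highest value of any other member, 79.3 FPKM for FH. From IDH3B down to CS, the ranges of neighbouring enzymes overlapped: IDH3B exceeded IDH3G in 6 of 9 libraries, FH exceeded DLST in 4 of 9 and OGDH exceeded CS in 7 of 9. The order of these neighbours thus varied between libraries, and differences between them within a library were not tested.

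The summed level of the 9 enzymes did not separate the groups. It was 416 ± 39.7 FPKM in controls, 394 ± 16.9 FPKM at 1% and 400.0 ± 27.7 FPKM at 2% (SD, n = 3), with overlapping ranges. Together the 9 genes took 0.0712% to 0.0851% of the recovered reads of a library, while albumin alone took 2.42% to 9.02%.

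**Figure D1:**
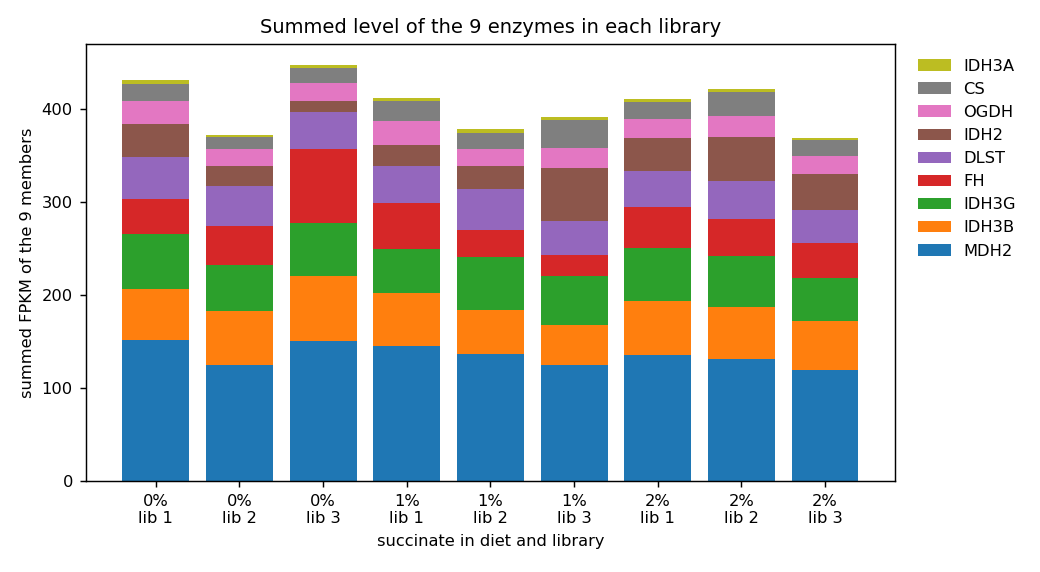
Stacked bars give the FPKM of each of the 9 enzymes in each of the 9 libraries, by succinate in the diet (x axis) and summed FPKM (y axis, from 0). The bars reach 369 to 447 FPKM, MDH2 is the largest block in each, and the IDH2 and FH blocks differ most between libraries.

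Citrate synthase, encoded by CS, condenses acetyl-CoA with oxaloacetate and opens the cycle. CS stood at 18.7, 12.2 and 16.5 FPKM in control livers, at 22.1, 17.0 and 29.9 FPKM with 1% succinate and at 18.7, 25.5 and 16.8 FPKM with 2%. The highest value belonged to library 3 at 1%, the one with conflicting labels, and the lowest to control 2. Both dosed groups overlapped the controls, since control 1 lay above 1% library 2 and above 2% libraries 1 and 3.

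Isocitrate is oxidised in the matrix by 2 distinct enzymes. IDH2 uses NADP and is a source of matrix NADPH, which keeps glutathione and thioredoxin reduced. IDH2 stood at 35.5, 21.9 and 11.4 FPKM in controls, at 22.1, 25.0 and 57.3 FPKM with 1% succinate and at 34.4, 46.8 and 38.6 FPKM with 2%. It was the most variable of the 9 genes, with a 5.04-fold span between 1% library 3 and control 3. The 2% libraries lay close together, and only control 1 reached into their range, above 2% library 1.

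The NAD-linked enzyme, isocitrate dehydrogenase 3, is the form regarded as part of the cycle proper. IDH3A encodes its catalytic subunit, and IDH3B and IDH3G encode the subunits that pair with it and carry its allosteric control. IDH3A had 3.95, 2.48 and 3.34 FPKM in controls, 3.04, 3.90 and 3.28 FPKM at 1% and 3.18, 4.03 and 2.87 FPKM at 2%. No group stood apart, and the values rest on 103 to 155 reads per library, so counting alone contributes an error of 8.03% to 9.85%. The partner transcripts were far more abundant: IDH3B exceeded IDH3A by 12.2-fold to 23.5-fold within a library and IDH3G exceeded it by 13.5-fold to 19.9-fold.

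IDH3B had 55.0, 58.5 and 69.9 FPKM in controls, 57.0, 47.8 and 42.7 FPKM at 1%, and 57.9, 56.8 and 52.4 FPKM at 2%. Its lowest value was in 1% library 3 and its highest in control 3. IDH3G had 59.1, 49.4 and 57.1 FPKM in controls, 47.2, 56.5 and 52.4 FPKM at 1%, and 57.3, 54.6 and 46.3 FPKM at 2%. The 3 groups of each gene overlapped, and the span of IDH3G over all libraries was only 1.28-fold.

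The 2-oxoglutarate dehydrogenase complex makes succinyl-CoA. OGDH encodes its decarboxylase and DLST the lipoyl-bearing succinyltransferase core. OGDH stood at 24.2, 18.2 and 19.1 FPKM in controls, 25.9, 18.7 and 21.6 FPKM at 1%, and 20.4, 22.7 and 18.7 FPKM at 2%. DLST stood at 45.6, 43.0 and 39.6 FPKM in controls, 40.2, 43.2 and 35.9 FPKM at 1%, and 39.6, 41.0 and 35.9 FPKM at 2%. Neither gene separated the groups. DLST was above OGDH in each library, by 1.55-fold to 2.37-fold.

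Downstream of complex II, FH encodes fumarase, which hydrates fumarate to malate in the matrix and, as a second pool, in the cytosol. FH stood at 36.9, 41.2 and 79.3 FPKM in controls, 48.7, 29.7 and 23.0 FPKM at 1%, and 43.0, 39.3 and 37.9 FPKM at 2%. Control 3 was far above all other libraries and 1% library 3 was the lowest, while the 2% libraries lay within the range of the other groups. MDH2, which regenerates oxaloacetate, stood at 152, 125 and 151 FPKM in controls, 145, 136 and 125 FPKM at 1%, and 136, 131 and 119 FPKM at 2%. MDH2 varied by 1.27-fold in all, with each dosed group overlapping the controls.

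**Figure D2:**
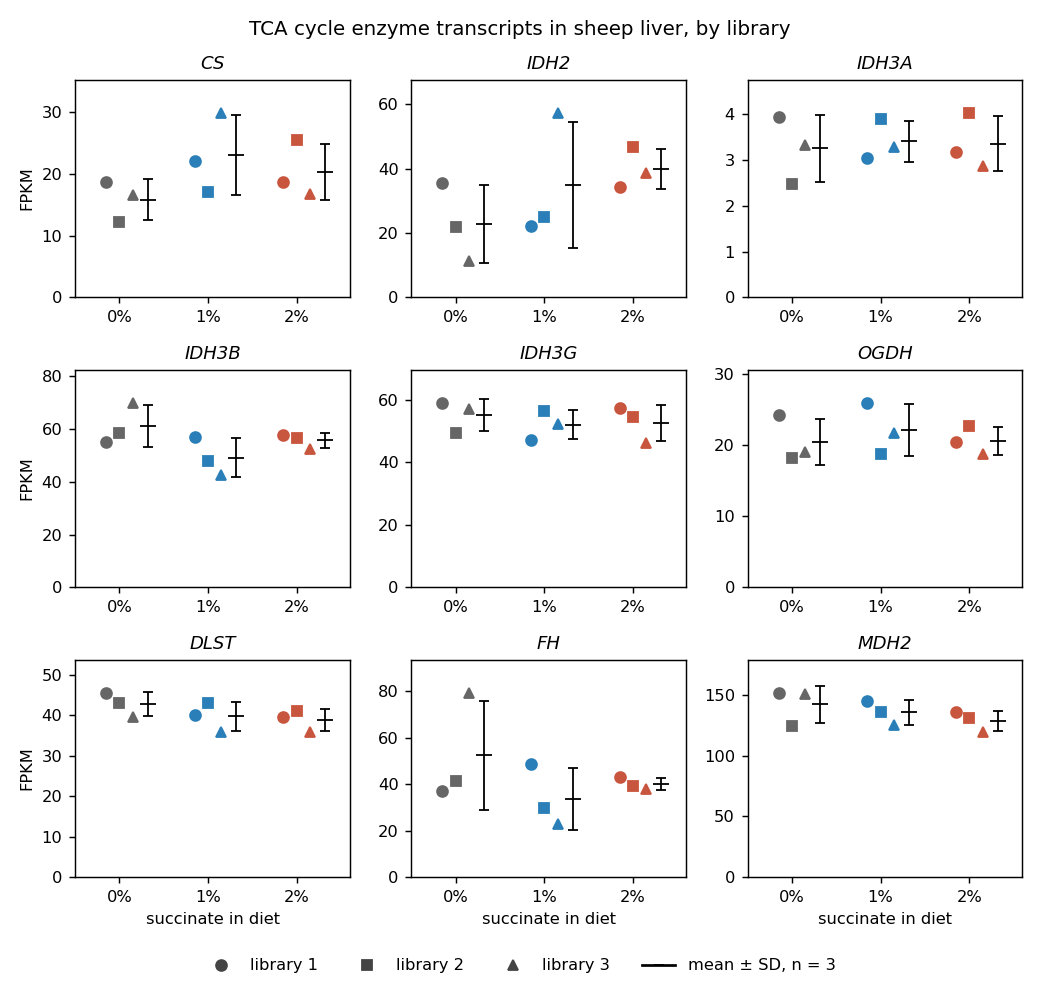
Each panel plots the FPKM of 1 enzyme (y axis, from 0) in 3 libraries per level of dietary succinate (x axis), with the mean ± SD beside the points. The groups overlap in all 9 panels, and IDH2 and FH show the widest spread, from 11.4 to 57.3 and from 23.0 to 79.3 FPKM.

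The comparison of 1% succinate with control asked whether the lower dose moved any enzyme of the cycle. None of the 9 transcripts changed by the test used. CS averaged 23.0 ± 6.48 FPKM at 1% against 15.8 ± 3.33 FPKM in controls, FH 33.8 ± 13.3 against 52.5 ± 23.4 FPKM, IDH2 34.8 ± 19.5 against 22.9 ± 12.1 FPKM and IDH3B 49.2 ± 7.25 against 61.2 ± 7.80 FPKM (SD, n = 3). The other 5 had a log2 change between -0.10 for DLST and 0.11 for OGDH. On the log2(FPKM + 1) scale CS had a change of 0.50 (SE 0.25, limma adjusted p = 0.370), FH one of -0.60 (SE 0.32, adjusted p = 0.396), IDH2 one of 0.59 (SE 0.43, adjusted p = 0.509) and IDH3B one of -0.31 (SE 0.17, adjusted p = 0.406). With limma 0 of 9 members passed, and 0 of 9 had an unadjusted p under 0.05. Over all 11944 tested genes 0.0167% passed and 14.9% had an unadjusted p under 0.05. No member separated the groups, against 17.9% of all tested genes in either direction.

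The median log2 change of the 9 at 1% was -0.07, beside -0.14 for all tested genes, and 5 of 9 were below 0 against 68.6% of all genes. Quantile or median-ratio scaling of the libraries moved the median of all genes to 0.01, and under both IDH3G and MDH2 turned above 0, as did DLST under median-ratio scaling. Library 3 at 1% set much of the size of the larger values: without it the change was 0.30 for CS, 0.17 for IDH2 and -0.37 for FH. Without control 3 it was 0.18 for IDH2 and -0.27 for FH, and without control 2 it was 0.34 for CS.

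At 2% succinate against control the picture was again one of overlap, with IDH2 the enzyme farthest from control. IDH2, the NADP-linked dehydrogenase, averaged 39.9 ± 6.27 FPKM at 2% against 22.9 ± 12.1 FPKM in controls (SD, n = 3). Its log2 change of 0.90 (SE 0.43) corresponds to 1.87-fold in FPKM + 1, with a 95% interval of 0.964-fold to 3.61-fold. It did not pass (unadjusted p = 0.0616, limma adjusted p = 0.950). CS averaged 20.3 ± 4.55 against 15.8 ± 3.33 FPKM (log2 change 0.34, SE 0.25) and FH 40.1 ± 2.68 against 52.5 ± 23.4 FPKM (-0.30, SE 0.32). The other 6 lay between -0.14 for MDH2 and 0.04 for IDH3A. With limma 0 of 9 passed and 0 of 9 had an unadjusted p under 0.05, against 0.0502% and 5.18% of all tested genes. No member separated the groups, against 10.6% of all tested genes.

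The median of the 9 at 2% was -0.07, beside -0.05 for all tested genes, with 5 of 9 below 0 against 60.7% of all genes. The IDH2 change rested in part on control 3, its lowest library. It was 0.49 (adjusted p = 0.920) without that library and 1.27 (adjusted p = 0.728) without control 1. With the doubtful library 3 at 1% moved to 2% it was 1.03 (SE 0.33, adjusted p = 0.498). The FH change was 0.04 without control 3, so its sign rested on that library, and -0.50 without control 1 and -0.49 when 1% library 3 was moved to 2%. The CS change was 0.18 without control 2 or without 2% library 2.

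**Figure D3:**
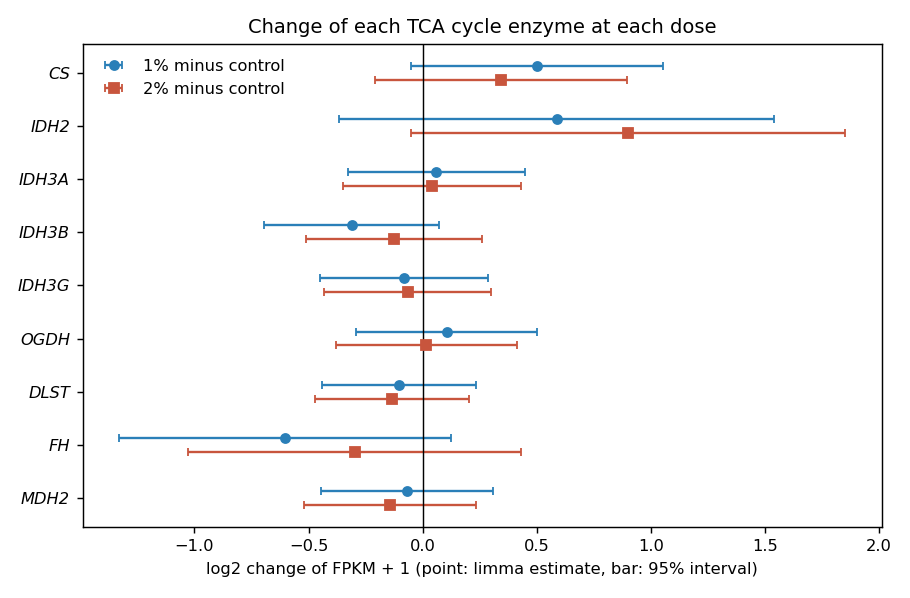
Points give the limma estimate of the log2 change of FPKM + 1 (x axis) of each enzyme (y axis) at 1% and at 2% succinate against control, and bars the 95% interval. All 18 intervals include 0, and those of IDH2, FH and CS are the widest.

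Between the doses, 2% against 1%, the 9 enzymes differed little. The largest values were log2 changes of 0.31 (SE 0.43) for IDH2, 0.30 (SE 0.32) for FH and 0.18 (SE 0.17) for IDH3B, and the smallest adjusted p was 0.820 (limma), that of IDH3B. In this comparison 0 of 9 members and 0% of all tested genes passed, 0 of 9 members and 7.48% of all genes had an unadjusted p under 0.05, and no member separated the groups against 14.3% of all genes. Moving 1% library 3 to 2% changed the sign of FH and CS, to -0.12 and 0.18, and brought IDH3B to -0.003. In the fit as labelled 5 of 9 members lay below 0, against 38.2% of all genes. IDH2 had 39.9 ± 6.27 FPKM at 2% against 34.8 ± 19.5 FPKM at 1%, a difference well inside the spread at 1%.

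Either dose against control, which shares its libraries with the comparisons above, gave a log2 change of 0.74 (SE 0.37, adjusted p = 0.508) for IDH2, 0.42 (SE 0.21, adjusted p = 0.515) for CS and -0.45 (SE 0.28, adjusted p = 0.566) for FH. IDH2 had a slope of 0.45 log2 units per percent succinate (SE 0.20, unadjusted p = 0.0515, limma adjusted p = 0.998), the CS slope was 0.17 and the FH slope -0.15. In these fits 0 of 9 members passed, against 0.0754% of all tested genes for either dose and 0.0251% for the slope, and 0 of 9 had an unadjusted p under 0.05, against 10.2% and 4.23%. In both fits 5 of 9 members lay below 0, against 67.1% and 60.7% of all tested genes.

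The intervals give the range of change compatible with each estimate, gene by gene. They do not bound what the test adjusted over all tested genes could miss. At 1%, PDK4 (log2 change -1.95, limma adjusted p = 0.136) and IDH1 (-1.14, adjusted p = 0.278) did not pass. For IDH3A, IDH3B, IDH3G, OGDH, DLST and MDH2 the intervals ran no lower than 0.617-fold and no higher than 1.42-fold at 1%. At 2% they ran no lower than 0.698-fold and no higher than 1.35-fold. These are folds of FPKM + 1, so for IDH3A, at 3.34 FPKM, the bounds in FPKM itself would lie farther from no change. For the other 3 they were wider. IDH2 at 1% spanned 0.776-fold to 2.91-fold, FH 0.398-fold to 1.09-fold and CS 0.965-fold to 2.08-fold. FH at 2% spanned 0.491-fold to 1.35-fold and CS 0.864-fold to 1.86-fold.

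Spread between libraries divided the 9 enzymes into quiet and variable members. DLST, MDH2 and IDH3G were among the steadiest transcripts of the liver: only 2.42%, 3.92% and 4.79% of tested genes had a smaller SD of log2(FPKM + 1) over the 9 libraries. For OGDH, IDH3A and IDH3B that share was 17.9%, 18.8% and 25.1%. The added 1 lowers this SD for IDH3A, at 3.34 FPKM. In FPKM its SD within groups was 18.1% of the mean, against 14.4% for OGDH and 11.5% for IDH3B. IDH2 and FH lay at the other end, with 94.4% and 85.9% of tested genes below them, and CS at 73.2%. Within groups the SD was 42.2% of the mean for IDH2, 37.0% for FH and 25.2% for CS, against 7.70% for DLST and 8.58% for MDH2. Counting error was at most 5.98% for IDH2 and 3.63% for FH, far below that spread.

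IDH2 and FH ran in opposite directions in the libraries where either was extreme. In 1% library 3 IDH2 had its highest value and FH its lowest, and the ratio of FH to IDH2 was 0.402. In control 3 IDH2 had its lowest value and FH its highest, and the ratio was 6.98. Elsewhere the ratio lay between 0.841 in 2% library 2 and 2.20 in 1% library 1. Within the order of the 9 enzymes, IDH2 thus ranged from rank 2 in 1% library 3 to rank 8 in 1% library 1 and control 3, and FH from rank 7 in 1% library 3 to rank 2 in control 3. IDH3B shared its highest and lowest library with FH. These 2 libraries belong to different groups, so library and dose cannot be told apart in the contrast between them.

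**Figure D4:**
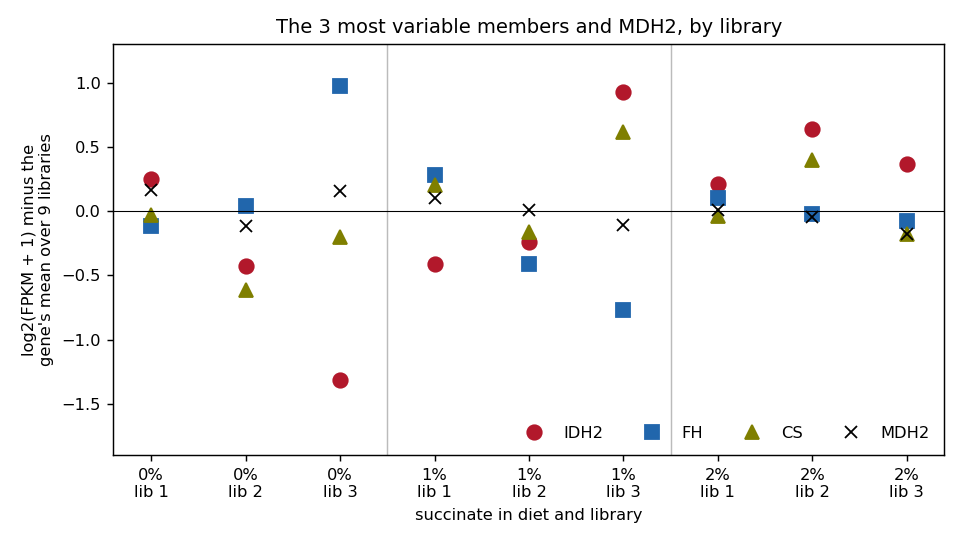
Points give log2(FPKM + 1) of IDH2, FH, CS and MDH2 minus the mean of that gene over the 9 libraries (y axis), by library and succinate in the diet (x axis). IDH2 and FH lie on opposite sides of 0 in 1% library 3 and in control 3, while MDH2 stays near 0.

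Among tested genes with a symbol, those with the profile nearest to IDH2 over the 9 libraries were CREB3L1, JUN and B4GALT7. Their root mean square distances from the centred profile were 0.22, 0.27 and 0.30 log2 units, against a median of 0.67 for all tested genes with a symbol. CREB3L1, a membrane-bound transcription factor, had 14.3 FPKM in 1% library 3 and 2.77 FPKM in control 3. JUN, a subunit of the AP-1 transcription factor, had 27.3 FPKM in 1% library 3 and 8.36 FPKM in control 3, although its highest value, 35.4 FPKM, was in control 1. Nearest to FH were ARSD, PGRMC1 and DHRS7, at 0.13, 0.14 and 0.15 log2 units, against a median of 0.49. PGRMC1, a heme-binding membrane protein that interacts with cytochromes P450, had 352 FPKM in 1% library 3 and 1022 FPKM in control 3. Nearest to the mean profile of the 9 members, which was almost flat (SD 0.10), lay ZFP91 and LIG4, each at 0.05 log2 units.

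Ratios within a library do not depend on how libraries are scaled to each other. The ratio of CS to OGDH was the only one of the 7 examined whose groups did not overlap in a comparison with control. It was 0.916, 1.12 and 0.8998 at 2%, against 0.774, 0.671 and 0.868 in controls, a difference of 0.35 in mean log2 ratio (exact two-sided permutation p = 0.1, n = 3 each, the smallest p this design allows, and 0.42 adjusted over 14 tests). At 1% it was 0.854, 0.909 and 1.38, which overlapped the controls.

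IDH2 set against the mean of the 3 IDH3 subunits was 0.872, 1.22 and 1.14 at 2%, against 0.902, 0.595 and 0.261 in controls (difference in mean log2 ratio 1.04, exact permutation p = 0.2). At 1% it was 0.618, 0.693 and 1.74 (difference 0.81, exact permutation p = 0.4). The balance of OGDH to DLST differed by 0.22 at 1% and 0.15 at 2% (exact permutation p = 0.3 for each), and that of IDH3A to IDH3G by 0.17 and 0.12 (exact permutation p = 0.3 and p = 0.5). For CS to FH the difference was 1.15 at 1% and 0.67 at 2% (exact permutation p = 0.2 and p = 0.3). With 3 libraries a group none of the 14 ratio tests could have passed a threshold of 0.05.

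Around the 9 enzymes no other gene of the cycle passed. Of 11 genes, among them those for succinyl-CoA ligase, succinate dehydrogenase, the shared lipoamide dehydrogenase and related 2-oxoacid enzymes, 10 were tested, and with limma 0 passed at either dose and 0 had an unadjusted p under 0.05. Their median log2 change was -0.13 at 1% and -0.06 at 2%, beside -0.14 and -0.05 for all tested genes. At 1% the smallest p belonged to SDHA, the flavoprotein subunit of complex II, at 118 ± 10.9 against 151 ± 28.1 FPKM, and SUCLA2, an ADP-forming succinyl-CoA ligase subunit, at 8.35 ± 1.44 against 6.60 ± 2.85 FPKM. At 2% SUCLG1, the succinyl-CoA ligase subunit shared by its ADP-forming and GDP-forming types, was at 98.2 ± 17.3 against 114 ± 18.4 FPKM (log2 change -0.22, limma adjusted p = 0.952).

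Genes that control the entry of carbon into the cycle did not pass either. In the pyruvate entry list 13 of 14 genes were measured and tested. PDK4, the kinase that inactivates pyruvate dehydrogenase, stood at 28.1, 24.5 and 14.01 FPKM at 1%, against 98.6, 76.0 and 83.0 FPKM in controls (log2 change -1.95, SE 0.37, limma adjusted p = 0.136). The groups did not overlap for PDK4, nor for 17.9% of all tested genes. At 2% it stood at 110, 39.3 and 72.7 FPKM, on both sides of the controls. At 2% the smallest p in the list belonged to PDP2, a phosphatase that reactivates pyruvate dehydrogenase, at 4.99, 4.93 and 5.29 FPKM, against 7.27, 8.50 and 6.14 FPKM in controls (-0.44, adjusted p = 0.950, limma). MPC1, a subunit of the mitochondrial pyruvate carrier, was at 232 ± 28.0 FPKM at 2% against 171 ± 15.6 FPKM in controls (0.44, adjusted p = 0.950). Neither PDP2 nor MPC1 overlapped between the groups, nor did 10.6% of all tested genes, and both were named for their small p. MPC2, the other subunit of that carrier, had log2 changes of -0.37 at 1% and -0.16 at 2%.

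A mixed list held cytosolic counterparts, users of malate, citrate or oxaloacetate, and mitochondrial genes among them, such as PCK2, GOT2 and FAHD1. Of its 11 tested genes, 9 had a fitted value below 0 at 1%, beside 68.6% of all tested genes. Their median was -0.33 beside -0.14. IDH1, the cytosolic and peroxisomal counterpart of IDH2, stood at 54.0, 49.99 and 21.6 FPKM at 1%, against 68.5, 82.0 and 116 FPKM in controls (log2 change -1.14, SE 0.38, limma adjusted p = 0.278). Its groups did not overlap, nor did those of 17.9% of all tested genes. The lowest and highest libraries of IDH1 were those where IDH2 was highest and lowest. GOT1, the cytosolic aspartate aminotransferase of the malate-aspartate shuttle, stood at 108, 102 and 137 FPKM at 1%, against 47.7, 44.1 and 88.7 FPKM in controls (0.99, adjusted p = 0.275), also without overlap. At 2% IDH1 had 72.4 ± 22.2 and GOT1 77.4 ± 26.2 FPKM, against 88.9 ± 24.7 and 60.1 ± 24.8 FPKM in controls.

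Of 11 tested mitochondrial carriers 9 were below 0 at 1% and 7 at 2%, beside 68.6% and 60.7% of all tested genes, and 0 passed at either dose. Their median log2 changes were -0.24 and -0.09, beside -0.14 and -0.05 for all tested genes. SLC25A10, the dicarboxylate carrier that exchanges succinate and malate for phosphate, stood at 29.2, 28.2 and 15.7 FPKM at 1%, against 41.6, 38.4 and 51.9 FPKM in controls (adjusted p = 0.261, limma). These groups did not overlap, nor did those of 17.9% of all tested genes. SLC25A13, the aspartate-glutamate carrier citrin, had a log2 change of -0.62 at 1%. At 2% the lowest p belonged to the adenine nucleotide translocator SLC25A4, at 153 ± 47.8 against 271 ± 94.7 FPKM.

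Among lipoylation genes, which supply the cofactor of DLST, 7 were tested and 0 passed, with 4 below 0 and 3 above 0 at each dose. Over all tested genes 68.6% lay below 0 at 1% and 60.7% at 2%. LIPT1, LIAS and MCAT, those above 0, had log2 changes of at most 0.12 at 1% and at most 0.19 at 2%. MECR, an enoyl reductase of mitochondrial fatty acid synthesis, had a log2 change of -0.39 at 1% and -0.22 at 2%, LIPT2, an octanoyl transferase, -0.68 and -0.08, and GCSH, the lipoyl protein of the glycine cleavage system, -0.76 and -0.88. The list medians were -0.39 and -0.08, beside -0.14 and -0.05 for all tested genes.

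Partners of IDH2 in matrix NADPH and redox supply numbered 15, all tested, and 0 passed. NNT, the transhydrogenase that also makes matrix NADPH, was at 23.3 ± 8.23 FPKM at 1% against 34.6 ± 6.19 FPKM in controls (log2 change -0.58, limma adjusted p = 0.336). The matrix peroxiredoxin PRDX3 was at 113 ± 27.9 against 153 ± 22.7 FPKM. At 2% the manganese superoxide dismutase SOD2 stood at 124, 184 and 105 FPKM, against 237, 722 and 193 FPKM in controls (-1.26, SE 0.49, limma adjusted p = 0.941), so control 2 set much of the size of that difference. The groups did not overlap for SOD2, nor for 10.6% of all tested genes.

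Regulators of mitochondrial genes had a median of -0.30 at 1% and -0.15 at 2%, beside -0.14 and -0.05 for all tested genes. Of 10 tested 9 were below 0 at 1% and 7 at 2%, beside 68.6% and 60.7% of all tested genes, and 0 passed. PPARGC1A, a coactivator of mitochondrial genes, was at 1.80 ± 1.19 FPKM at 1% against 4.27 ± 0.826 FPKM in controls, and SIRT3, a matrix deacetylase known in mouse to act on IDH2, at 14.9 ± 4.09 against 20.9 ± 1.20 FPKM (adjusted p = 0.261 and 0.304). At 2% ESRRA, an orphan nuclear receptor of the same program, had a log2 change of -0.54.

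Of 11 listed markers of mitochondrial mass 7 were measured and tested. At 1% 5 were above 0 and 2 below, and at 2% 2 were above 0 and 5 below, beside 68.6% and 60.7% of all tested genes below 0. The medians were 0.07 and -0.19, beside -0.14 and -0.05 for all tested genes. The matrix chaperonin HSPD1 stood at 109, 139 and 156 FPKM at 1%, against 85.4, 87.1 and 84.9 FPKM in controls (0.63, SE 0.19, adjusted p = 0.264). Its groups did not overlap, nor did those of 17.9% of all tested genes. At 2% TOMM20, a receptor of the outer membrane import machinery, was at 28.2 ± 3.80 against 42.8 ± 9.35 FPKM (adjusted p = 0.909). With limma 0 of the 7 passed at either dose, and at 2% the share below 0 was near that of all tested genes. Whether mitochondrial mass differed was not tested.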

How the data were processed

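Liver RNA from 9 libraries, 3 per group, was sequenced as paired ends by the submitters. Per the file headers the authors deposited FPKM per gene, 1 column per library. The mapping and counting tools were not stated. GRCm38 and mm10, both mouse builds, appear in the submitters' processing notes, whereas 20156 of 21257 names, all 9 members included, matched sheep RefSeq symbols (ARS-UI_Ramb_v3.0, used for names only), so no coordinates are given. Strand use and the handling of reads shared between paralogs are not stated.

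All 17402 genes above 0 in at least 2 libraries came out as whole reads (tolerance 0.01), which gave the depths and read numbers. Intervals on reads cover counting error only. Over the 36 pairs of libraries, chi-square divided by its degrees of freedom was at least 42.3, so none was a copy.

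Tests were run on log2(FPKM + 1), which understates changes of low genes, by limma 3.58.1 (R 4.3.3) with an intensity trend, all 9 libraries in 1 fit, on 11944 genes with FPKM of at least 1 in at least 3 libraries. P-values are two-sided, adjusted by Benjamini-Hochberg over all tested genes, threshold 0.05. The fit was tested on simulated data. Ratios were compared by exact permutation. Python 3.11.15, pandas 2.3.3, numpy 2.4.6 and matplotlib 3.10.9 were used. Members, lists and tests were chosen with earlier results of these data known. All members were named, and from each related list the 2 genes with the smallest p at each dose, of which those described are a part. The nearest genes were the 3 of smallest profile distance to the 2 most variable members and to the mean. Lists for clock genes and markers of other cell types are given as counts or sums. Alternatives were other pseudocounts, filters and scalings, voom on recovered reads, a replicate block, the groups compared alone, each library left out and the library of conflicting labels placed at 2%. Sequences of the members were not used here. Some genes that these rules name are not reported here.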

Additional observations from a re-analysis of the deposited data

How the results depend on the processing

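Alternatives were run for 33 member values: all 9 members in the 3 comparisons between pairs of groups, and CS, IDH2 and FH for either dose and the slope. Over the 288 fits with all libraries in, 0 passed and the smallest adjusted p was 0.306 (limma), and 278 kept their direction. Without 1 library the smallest adjusted p was 0.173, and none passed. Sign changed under quantile scaling at 1% for IDH3G (0.0041) and MDH2 (0.064) and at 2% for IDH3G (0.035). It changed under median-ratio scaling at 1% for DLST (0.075), IDH3G (0.10) and MDH2 (0.11), and for IDH3G between doses (-0.10). With the library of conflicting labels at 2%, it changed between doses for CS (0.18), FH (-0.12) and IDH3B (-0.0029). Without 1 library in turn, log2 changes ran from -0.077 to 0.18 for IDH3A at 1%, -0.10 to 0.16 at 2% and -0.13 to 0.062 between doses. For OGDH they ran from -0.011 to 0.23, -0.061 to 0.14 and -0.20 to 0.027, and for IDH3G from -0.14 to 0.023 at 2% and -0.052 to 0.11 between doses. Between doses CS ran from -0.35 to 0.041 and DLST from -0.10 to 0.029. FH ran from -0.50 to 0.037 at 2%, and its slope from -0.21 to 0.040.

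Over all tested genes the number passing was 2 at 1%, 6 at 2%, 9 for either dose, 3 for the slope and 0 between doses. At 1% it was 0 under each alternative that kept all libraries. At 2% it was 1 with a stricter filter (mean FPKM of 5), the groups alone, the replicate block or the library of conflicting labels at 2%, and 3 with no filter or with voom. For either dose it was 4 with the stricter filter, 3 with median-ratio scaling or a pseudocount of 0.1, 5 with quantile scaling, 1 with no filter, the replicate block or the library of conflicting labels at 2%, and 13 with voom on recovered reads. For the slope it was 1 with the stricter filter and 0 with the replicate block or that library at 2%. Leaving out 1 library gave 0 to 4 at 1%, 0 to 7 at 2%, 0 to 11 for either dose, 0 to 5 for the slope and 0 to 1 between doses. The ratio tests could not pass at this size under any setting. No clear pairing of the libraries by the numbers in their titles was seen. Correlations of deviations over genes between same-numbered libraries were -0.30 to 0.28, with 2 of 9 over 0.1. Of 9 libraries, 2 correlated best with one of their own number. The deviations were taken from means of 3 libraries, so these values cannot exclude a pairing. The cause of the shifts between settings was not tested. With 3 libraries per group, and 103 to 155 reads for IDH3A, small changes could not be detected. Larger changes could also fail to pass after adjustment over all tested genes.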
